A study of Homo sapiens with 9 samples.

Results

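RNA levels of 37 aminoacyl-tRNA synthetase genes were compared in T47D cells, a human estrogen receptor–positive (ER+) breast cancer line, with and without mesenchymal stromal cells (MSCs), for which HS5, an established line from human bone marrow stroma, was used. The genes were chosen by symbol, as a list of cytosolic and mitochondrial synthetases, from the 27635 gene symbols of the deposited table. In this list, 18 genes encode cytosolic enzymes or their subunits, 16 encode mitochondrial enzymes, GARS and KARS encode enzymes that serve both compartments, and TARSL2 encodes a further cytosolic threonyl-tRNA synthetase. Contact culture (CC) libraries came from T47D cells that were plated with HS5 cells, at 10% cancer cells to 90% MSCs, and then recovered on beads that bind the epithelial surface protein EpCAM. Conditioned medium (CMed) libraries came from T47D cells kept in medium conditioned by HS5 cells, and monoculture (MC) libraries came from T47D cells grown alone. Each group had 3 libraries. The culture protocol that all groups share gives 24 hours in full medium with 10% FBS, and then 48 hours with 10 nM estradiol in low-glucose medium and 1% FBS. The labels describe the bead step for co-cultures, so contact with HS5 cells and passage over the beads cannot be told apart. Nothing in the labels says that replicates came from separate cultures, and p values measure the spread between these libraries only.

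Aminoacyl-tRNA synthetases join each amino acid to its tRNAs and so supply charged tRNAs to the ribosome. Cytosol and mitochondria mostly use separate enzymes, and those of the mitochondrion are also encoded in the nucleus. Several cytosolic enzymes sit in a multisynthetase complex held together by the scaffold proteins AIMP1, AIMP2 and EEF1E1. Many genes of cytosolic synthetases are known targets of ATF4, a transcription factor whose translation increases when eIF2 kinases respond to amino acid shortage or to stress of the endoplasmic reticulum. ATF4 acts with C/EBP proteins on a composite DNA element, and the genes of mitochondrial synthetases are not known as a class of ATF4 targets.

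Levels are given in TPM, an abundance per transcript length that is scaled to a common total in each library. Changes are differences of group means of log2(TPM + 1) and are called log2 fold changes. A gene was called higher or lower when its Benjamini-Hochberg adjusted p from limma was under 0.05 across all 16696 genes that reached 0.5 TPM in 3 or more libraries. All 37 synthetases passed this filter. Read counts were not among the deposited values and TPM keeps no depth, so no counting error can be given. Genes listed above 0 numbered 19784 to 21178 in CC libraries, 19476 to 20054 in CMed libraries and 18166 to 19654 in MC libraries. Replicates correlated over genes with a Pearson's r of 0.944 to 0.968 in CC, 0.952 to 0.955 in CMed and 0.918 to 0.958 in MC, against 0.915 to 0.955 between groups. MC replicate 2 stood apart from the other MC libraries, and synthetase results are also given without it where they change.

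The promoters are shown because all 6 members that rose in contact culture are known ATF4 targets. The list of those targets was drawn up with earlier results of these data known, so it gives no independent test. Promoter windows of 250 bases before to 50 bases after a transcription start were read from RefSeq on GRCh38.p14 and were found for 30 of the 37 genes, some of which have more than 1 listed start and window. A gene was counted where any of its windows held a motif. Both strands were searched for TGATGNAA, the core of the C/EBP-ATF response element. The element was found for 7 of the 10 synthetase genes with a window on the list of known ATF4 targets (AARS, CARS, GARS, IARS, MARS, NARS and TARS), for 0 of 6 other genes of enzymes that work in the cytosol, and for 1 of 14 mitochondrial genes (YARS2). Among all 27305 RefSeq genes with a window 4.46% held it, and among all 35116 windows 3.62%. CARS, GARS and TARS also had a window without it. No window of EPRS, SARS or WARS held these letters, and 2 other members of the ATF4 list, LARS and YARS, had no window in the table. A part of the cyclic AMP response element, TGACGT, which is not contained in TGATGNAA and was searched in the same way, was found for 4 of the 30 genes, against 9.64% of all genes with a window and 7.98% of all windows. Whole windows that held the element are shown first, for 4 called genes, each written 5′ to 3′ on the strand of its gene, with the element in capitals. Capitals that start with TT and end with CATCA are a match on the opposite strand, read as the reverse complement.
MARS (chr12:57487818-57488117, plus strand): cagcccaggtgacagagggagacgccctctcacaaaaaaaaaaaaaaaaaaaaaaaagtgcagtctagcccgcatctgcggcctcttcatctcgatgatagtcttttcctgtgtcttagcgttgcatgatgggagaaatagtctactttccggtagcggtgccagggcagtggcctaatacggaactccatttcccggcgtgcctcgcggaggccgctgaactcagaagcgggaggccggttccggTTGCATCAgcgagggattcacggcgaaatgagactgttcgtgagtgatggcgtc
TARS (chr5:33440715-33441014, plus strand): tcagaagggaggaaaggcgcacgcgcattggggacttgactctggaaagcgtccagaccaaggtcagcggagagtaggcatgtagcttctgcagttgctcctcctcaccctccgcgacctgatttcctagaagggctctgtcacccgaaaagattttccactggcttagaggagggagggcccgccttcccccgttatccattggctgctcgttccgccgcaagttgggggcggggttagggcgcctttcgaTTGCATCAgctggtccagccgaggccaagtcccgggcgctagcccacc
CARS (chr11:3057374-3057673, minus strand): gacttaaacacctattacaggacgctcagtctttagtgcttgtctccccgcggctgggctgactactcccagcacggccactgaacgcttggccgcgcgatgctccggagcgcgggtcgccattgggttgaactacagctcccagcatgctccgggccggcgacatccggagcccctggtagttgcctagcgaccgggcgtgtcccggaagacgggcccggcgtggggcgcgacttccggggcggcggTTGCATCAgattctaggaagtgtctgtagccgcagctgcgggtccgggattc
GARS (chr7:30594628-30594927, plus strand): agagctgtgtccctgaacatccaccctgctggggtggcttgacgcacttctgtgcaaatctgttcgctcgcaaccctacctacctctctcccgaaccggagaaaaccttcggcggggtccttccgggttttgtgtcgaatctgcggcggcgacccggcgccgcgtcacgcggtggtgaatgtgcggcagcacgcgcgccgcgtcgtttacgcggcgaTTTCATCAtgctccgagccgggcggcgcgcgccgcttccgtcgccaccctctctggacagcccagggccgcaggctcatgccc
Positions are those of the first base of the match on the strand of the gene, counted from the transcription start with no base 0. The element was at position −4 in MARS, 3 in TARS, −2 in CARS and −33 in GARS, for which the later of 2 listed starts is shown. Shorter stretches around the element are shown for 3 ATF4-list genes that were not called, and for YARS2, the mitochondrial gene with a match.
AARS (chr16:70289656-70289723, minus strand): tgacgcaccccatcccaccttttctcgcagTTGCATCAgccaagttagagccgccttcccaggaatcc
IARS (chr9:92293673-92293740, minus strand): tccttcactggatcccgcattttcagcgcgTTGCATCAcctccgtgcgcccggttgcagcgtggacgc
NARS (chr18:57621787-57621852, minus strand): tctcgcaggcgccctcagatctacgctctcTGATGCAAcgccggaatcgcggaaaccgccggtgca
YARS2 (chr12:32756057-32756124, minus strand): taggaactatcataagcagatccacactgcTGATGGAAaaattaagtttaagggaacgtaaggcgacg
In these windows the element was at position −187 in AARS, −13 in IARS, 15 in NARS and −197 in YARS2. A match of letters is a description of the sequence, and binding was not measured here.

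Contact culture was compared with monoculture to show how direct growth with HS5 cells changes RNA of the cancer cells. In CC libraries 7 of the 37 synthetases were called, against 4.99% of all genes tested. MARS, WARS, TARS, YARS, CARS and GARS were higher and KARS was lower (6 of 37 higher, against 2.15% of all genes, and 1 of 37 lower, against 2.84%). All 6 that were higher charge tRNA in the cytosol, and all 6 are on the list of 12 known ATF4 targets. Since that list was drawn up with earlier results of these data known, the overlap is a description only. At an unadjusted p under 0.05 there were 11 of 37, against 20.3% of all genes. None of the 16 mitochondrial enzymes was called by limma, and 0 of 16 reached an unadjusted p under 0.05. In bulk RNA, a change in the mix of cells and a change in RNA per cell cannot be told apart.

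MARS encodes the cytosolic methionyl-tRNA synthetase, which also charges the initiator tRNA (ENSG00000166986.14, chr12:57475445-57517569, plus strand, GENCODE 29 on GRCh38). Its level was 692, 1810.2 and 1417 TPM in CC libraries, 517, 409.8 and 682 TPM in CMed libraries, and 199.99, 349 and 171 TPM in MC libraries. The lowest CC library was above the highest CMed library by little, and every CMed library was above every MC library. The log2 fold change was 2.40 (SE 0.38, 95% interval 1.54 to 3.26, adjusted p = 0.00947 from limma) between CC and MC, a ratio of mean TPM of 5.44. MARS was the most abundant of the 37 genes in the mean of all libraries, and it made up 32.3%, 48.5% and 46.6% of the summed TPM of the 18 cytosolic enzymes in CC libraries, 28.6%, 22.4% and 39.3% in CMed libraries, and 15.3%, 20.2% and 12.5% in MC libraries.

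The end of MARS overlaps the end of DDIT3, which is read from the opposite strand, by 982 bases in GENCODE 29. DDIT3 encodes CHOP, a stress-response transcription factor that ATF4 is known to induce. Its level was 157, 174 and 162 TPM in CC libraries, 64.9, 74.0 and 82.9 TPM in CMed libraries and 40.5, 63.5 and 43.2 TPM in MC libraries. It was higher in CC than in MC (log2 fold change 1.75, SE 0.19, adjusted p = 0.00135 from limma), so both genes of the overlap were called in the same direction. The ratio of MARS to DDIT3 was 4.42, 10.4 and 8.74 in CC libraries, 7.96, 5.53 and 8.22 in CMed libraries and 4.94, 5.49 and 3.96 in MC libraries. MARS was thus several times above DDIT3 in every library, and the ratio in CC replicate 1 lay within the range of the MC libraries. The library kit keeps strand, but the sources used here do not state whether the values per gene used it, and what the overlap adds to the level of MARS was not tested. ARHGAP9, which overlaps MARS by 13370 bases on the opposite strand, was not among the genes tested.

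**Figure D1:**
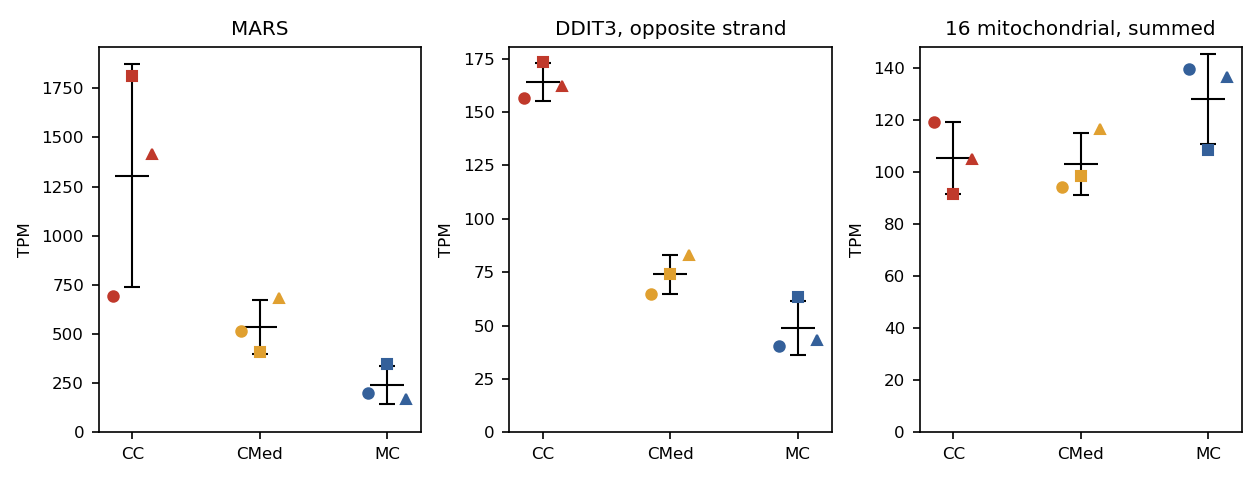
Levels in TPM of MARS, of DDIT3 on the opposite strand, and of the 16 mitochondrial synthetases summed, for each library of CC, CMed and MC (circle, square and triangle for replicates 1, 2 and 3; bars are mean ± SD). MARS lies between 692 and 1810.2 TPM in CC and between 171 and 349 TPM in MC, DDIT3 shows no overlap between CC and either other group, and the mitochondrial sum overlaps between CC and MC.

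WARS encodes the cytosolic tryptophanyl-tRNA synthetase, which interferon gamma is known to induce (chr14:100333788-100376805). Its level was 43.7, 65.2 and 66.5 TPM in CC libraries, 50.5, 21.8 and 43.8 TPM in CMed libraries and 20.6, 19.9 and 14.0 TPM in MC libraries. CC and MC did not overlap, and CMed replicate 2 lay just above the MC libraries. The log2 fold change between CC and MC was 1.63 (SE 0.32, adjusted p = 0.0225 from limma). TARS, the threonyl-tRNA synthetase (chr5:33440696-33469539), was the next most abundant synthetase after MARS, with 370.4, 466 and 394 TPM in CC libraries, 245, 249.8 and 188 TPM in CMed libraries, and 129, 278 and 153 TPM in MC libraries. All CC libraries were above all others, and MC replicate 2 was above every CMed library. TARS was higher in CC than in MC by 1.20 on the log2 scale (SE 0.27, adjusted p = 0.0356 from limma).

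YARS, the tyrosyl-tRNA synthetase (chr1:32775237-32818153), had 30.03, 23.1 and 23.1 TPM in CC libraries, 16.5, 14.9 and 14.3 TPM in CMed libraries and 10.9, 14.7 and 7.64 TPM in MC libraries. The CC libraries were apart from both other groups, and the difference from MC was 1.16 on the log2 scale (SE 0.23, adjusted p = 0.0243 from limma). CARS, the cysteinyl-tRNA synthetase (chr11:3000922-3057613), had 40.5, 46.6 and 44.3 TPM in CC libraries, 32.7, 39.1 and 26.0 TPM in CMed libraries and 20.0, 26.7 and 18.6 TPM in MC libraries. It was also apart in CC, by 0.99 against MC (SE 0.20, adjusted p = 0.0246 from limma). GARS, the glycyl-tRNA synthetase whose single gene serves cytosol and mitochondria (chr7:30594681-30634033), had the narrowest spread of the genes that rose. Its level was 158, 154 and 149 TPM in CC libraries, 91.3, 94.1 and 106 TPM in CMed libraries and 75.4, 104 and 87.0 TPM in MC libraries. Here CMed overlapped MC while CC stood above both, and the difference from MC was 0.79 (SE 0.15, adjusted p = 0.0203 from limma).

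KARS, the lysyl-tRNA synthetase, is the other gene that serves both compartments (chr16:75627474-75648643), and it was the only member that was lower. It had 75.7, 75.5 and 76.1 TPM in CC libraries, 84.6, 76.2 and 86.4 TPM in CMed libraries and 118, 111 and 105 TPM in MC libraries. Both CC and CMed lay wholly below MC. The log2 fold change between CC and MC was −0.55 (SE 0.13, adjusted p = 0.0420 from limma), and it stayed negative but was not past the threshold when libraries were rescaled (−0.43 to −0.46, adjusted p 0.0800 to 0.0994 from limma under 3 scalings). YARS, WARS and KARS overlap protein-coding genes of the opposite strand, by 1387 bases with S100PBP, 388 bases with WDR25 and 858 bases with TERF2IP.

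**Figure D2:**
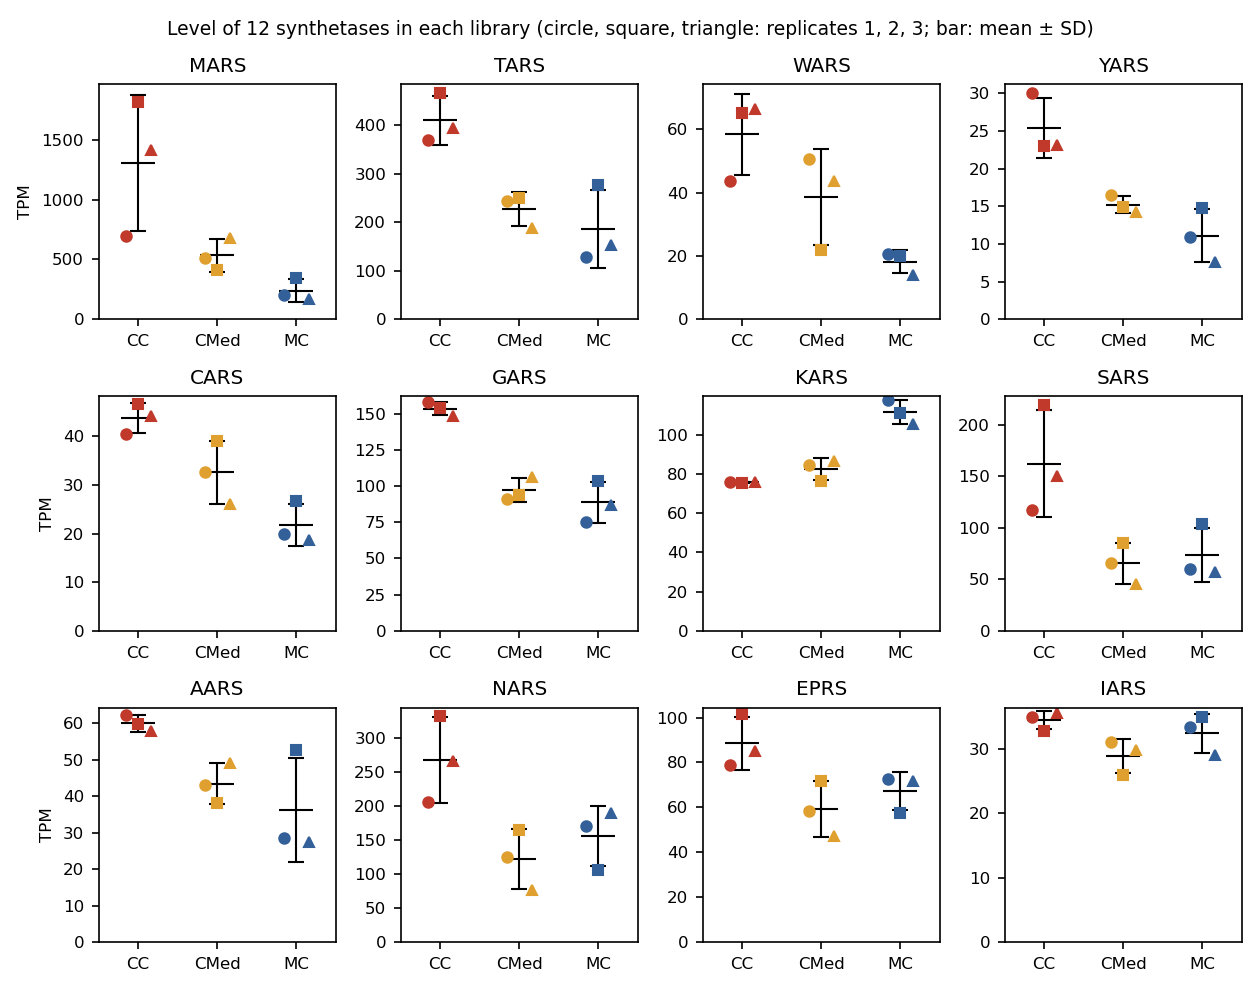
Level in TPM of 12 synthetases in each library of CC, CMed and MC (circle, square and triangle for replicates 1, 2 and 3; bars are mean ± SD, n = 3). The 6 genes that were called higher in CC than in MC have all CC libraries above all MC libraries, KARS has them below, and IARS, with 32.8 to 35.6 TPM in CC and 29.04 to 34.8 TPM in MC, overlaps.

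Another 4 ATF4-list enzymes had every CC library above every MC library but did not pass the threshold. SARS, the seryl-tRNA synthetase, had 118, 219 and 150.2 TPM in CC libraries, 66.0, 85.3 and 45.7 TPM in CMed libraries and 59.9, 104 and 57.2 TPM in MC libraries (log2 fold change between CC and MC 1.14, adjusted p = 0.0821 from limma). AARS, the alanyl-tRNA synthetase, had 62.4, 59.9 and 57.8 TPM in CC libraries, 43.2, 38.2 and 49.2 TPM in CMed libraries and 28.5, 52.8 and 27.6 TPM in MC libraries (0.77, adjusted p = 0.110). In both genes MC replicate 2 was well above the other MC libraries and came nearest to CC. NARS, the asparaginyl-tRNA synthetase, had 206, 332 and 267 TPM in CC libraries, 126, 165 and 76.8 TPM in CMed libraries and 172, 107 and 191 TPM in MC libraries (0.79, adjusted p = 0.203 from limma). EPRS, a fused enzyme for glutamate and proline, had 78.7, 102 and 85.2 TPM in CC libraries, 58.6, 72.0 and 47.2 TPM in CMed libraries, and 72.8, 57.5 and 71.9 TPM in MC libraries (0.39, adjusted p = 0.305 from limma). In these genes MC replicate 2 was instead the lowest MC library. IARS and LARS, the remaining ATF4-list members, overlapped between CC and MC, with log2 fold changes of 0.09 and 0.11.

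As a group, the 12 ATF4-list enzymes had a median log2 fold change of 0.89 between CC and MC, with 12 of 12 above 0 (11 of 12 without MC replicate 2), against a median of −0.08 over all genes tested. The split by this list is not independent of these data, so it describes them and tests nothing. The groups did not overlap for 10 of the 12, all higher in CC. Over the 37 genes this made 10 without overlap that were higher (9% of all genes) and 2 that were lower (15.3% of all genes). The other 8 enzymes that work in the cytosol had a median of −0.33, and 0 were called higher and 1, KARS, lower (2.15% and 2.84% of all genes). The next lowest adjusted p among these was that of FARSB, a subunit of phenylalanyl-tRNA synthetase, which had 15.8, 14.96 and 14.6 TPM in CC libraries, 16.4, 14.4 and 16.3 TPM in CMed libraries and 19.2, 24.0 and 19.1 TPM in MC libraries (−0.43 between CC and MC, adjusted p = 0.166 from limma). DARS, RARS, QARS, HARS, FARSA and VARS overlapped between CC and MC, at −0.48 to 0.15. DARS, the third most abundant of the cytosolic enzymes, had 134, 205 and 166 TPM in CC libraries, 219, 269 and 208 TPM in CMed libraries and 184, 345 and 198 TPM in MC libraries. VARS lies in the major histocompatibility region, and the 3 rows of its symbol, which may share reads, were summed, so its level is uncertain. Of the 8 enzymes of the multisynthetase complex, MARS was higher and KARS lower, and of the 12 outside it 5 were higher (2.15% of all genes were higher and 2.84% lower). Class I and class II enzymes, the families that differ in the fold of the catalytic site, each held called members. In class I 4 of 9 were higher and in class II 2 of 10, against 2.15% of all genes.

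**Figure D3:**
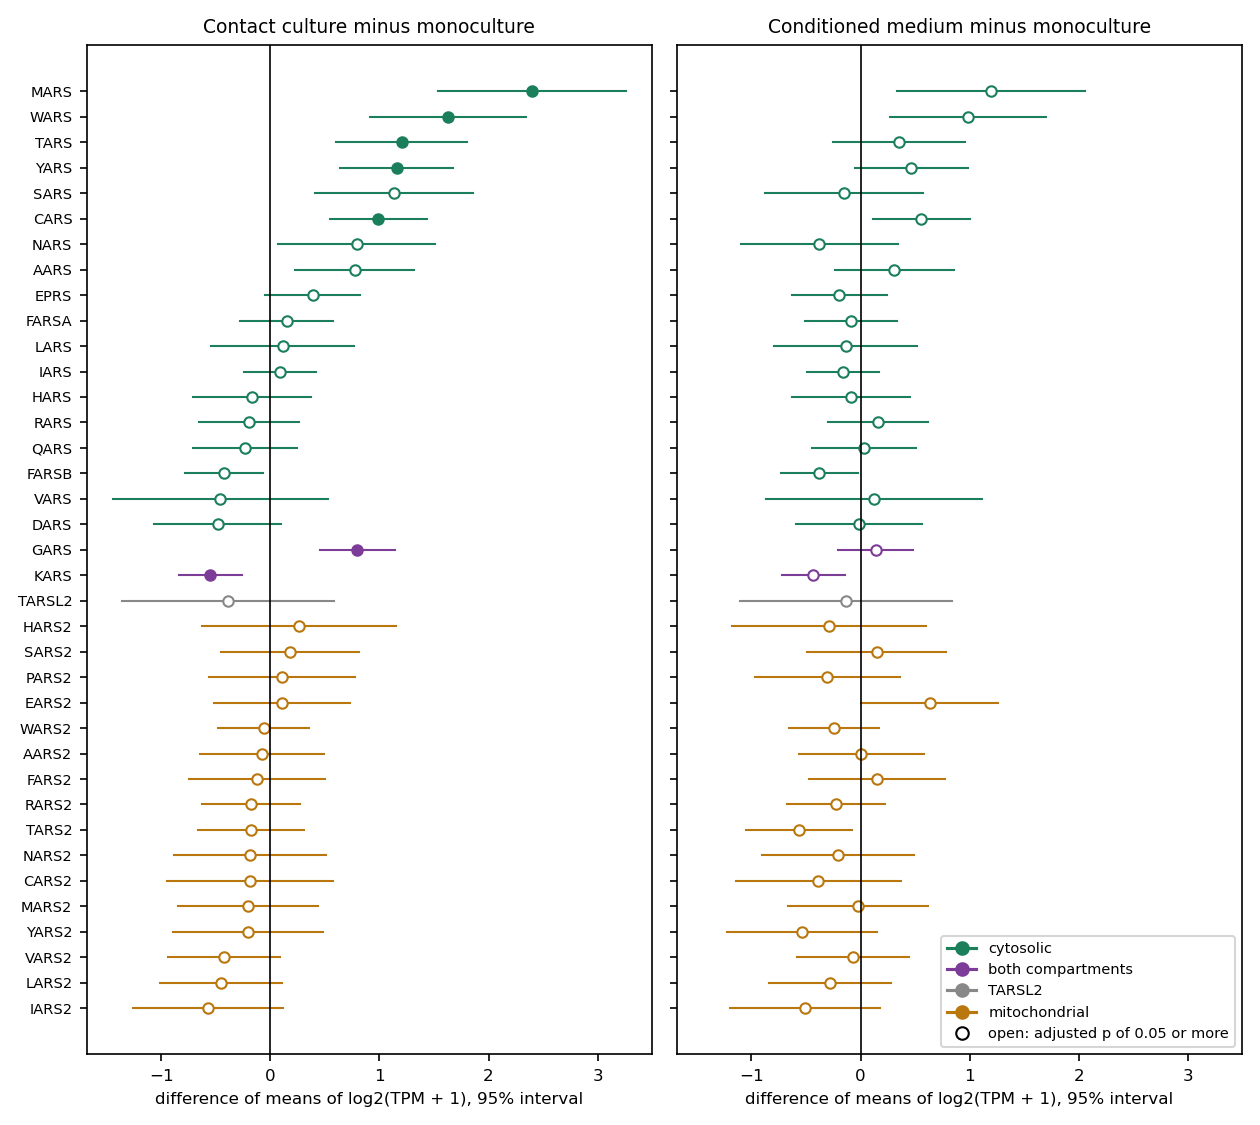
Differences of group means of log2(TPM + 1) with 95% intervals for the 37 synthetases, CC minus MC on the left and CMed minus MC on the right. Filled points have an adjusted p under 0.05 from limma, which 7 genes reach on the left and 0 on the right, and colors mark the compartment.

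The mitochondrial enzymes were far less abundant and changed less. Their summed level was 119, 91.6 and 105 TPM in CC libraries, 94.0, 98.5 and 116 TPM in CMed libraries and 139.5, 108 and 136 TPM in MC libraries. The sum for the 18 cytosolic enzymes was 2144, 3729 and 3039 TPM in CC libraries, 1803, 1831 and 1735.5 TPM in CMed libraries, and 1308, 1727 and 1366 TPM in MC libraries. Cytosolic over mitochondrial was 17.99, 40.7 and 28.97 in CC libraries, 19.2, 18.6 and 14.9 in CMed libraries, and 9.38, 15.95 and 10.0 in MC libraries, so every CC library was above every MC library. Without MARS the ratios were 12.2, 20.9 and 15.5 in CC libraries, 13.7, 14.4 and 9.05 in CMed libraries and 7.94, 12.7 and 8.77 in MC libraries, and CC replicate 1 fell below MC replicate 2.

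By gene, the 16 mitochondrial enzymes had log2 fold changes of −0.57 to 0.27 between CC and MC, with a median of −0.18, and all 16 overlapped between the groups. Their 95% intervals reached from −1.26 (IARS2) to 1.16 (HARS2), so sizeable changes of single genes were not excluded. These ends are not a limit of detection. The mitochondrial median of −0.18 stood beside −0.08 over all genes. It was −0.07 with median-ratio scaling, −0.10 with upper quartile scaling and −0.09 when mitochondrial and ribosomal RNA was left out. Relative to the median of all genes it was −0.10 in the main fit and −0.08 to −0.09 under these scalings. The median of the 18 cytosolic enzymes was 0.27, and the difference between the class medians was 0.45, with an SD of 0.20 between libraries of a group. It lay between 0.33 and 0.52 under every alternative tried. The contrast was not shared by all enzymes that work in the cytosol. The 12 on the ATF4 list had a median of 0.89. The 8 others had a median of −0.33, below the mitochondrial median, with 1 of 8 above 0 against 4 of 16 mitochondrial genes. Of the 16 mitochondrial genes set beside the cytosolic gene for the same amino acid, 13 had a lower log2 fold change than that partner when FARS2 was set beside FARSA, the catalytic subunit of its cytosolic counterpart. The exceptions were HARS2, RARS2 and VARS2, whose partners HARS, RARS and VARS were not called. FARS2 was a further exception when set beside the other subunit, FARSB, with −0.12 for FARS2 and −0.43 for FARSB.

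The mitochondrial partners of the called enzymes did not follow them. MARS2 had 1.16, 1.08 and 0.729 TPM in CC libraries, 1.18, 0.677 and 2.10 TPM in CMed libraries and 1.64, 0.796 and 1.503 TPM in MC libraries, with a log2 fold change of −0.20 between CC and MC beside 2.40 for MARS. WARS2 had 5.96, 7.74 and 7.04 TPM in CC libraries, 5.94, 6.09 and 5.87 TPM in CMed libraries and 7.03, 8.71 and 6.14 TPM in MC libraries (−0.06, beside 1.63 for WARS). TARS2 had 5.34, 7.48 and 4.52 TPM in CC libraries, 3.67, 4.70 and 4.05 TPM in CMed libraries and 6.64, 5.56 and 7.60 TPM in MC libraries (−0.18, beside 1.20 for TARS). In each of these pairs the CC and MC libraries of the mitochondrial gene were mixed. CARS2 had 6.01, 7.46 and 4.58 TPM in CC libraries, 4.37, 4.53 and 6.33 TPM in CMed libraries and 4.13, 6.21 and 12.2 TPM in MC libraries (−0.19, beside 0.99 for CARS). YARS2, whose promoter window held the element, had 14.8, 11.1 and 23.2 TPM in CC libraries, 10.8, 10.8 and 15.8 TPM in CMed libraries and 25.5, 14.1 and 16.7 TPM in MC libraries (−0.21, beside 1.16 for YARS).

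IARS2 was the most abundant mitochondrial synthetase, with 32.2, 18.8 and 23.0 TPM in CC libraries, 24.7, 21.8 and 29.3 TPM in CMed libraries and 46.3, 22.2 and 45.9 TPM in MC libraries. Its lower level in CC was not past the threshold (−0.57, adjusted p = 0.340 from limma) and passed without MC replicate 2, which lay far below the other MC libraries (−0.91, adjusted p = 0.0439). EARS2, for glutamate, had 13.5, 5.59 and 10.9 TPM in CC libraries, 11.6, 15.2 and 15.7 TPM in CMed libraries and 8.71, 8.69 and 8.67 TPM in MC libraries. AARS2, PARS2, MARS2, FARS2 and SARS2 averaged under 3 TPM in every group, as did TARSL2, which had 1.01, 2.44 and 0.764 TPM in CC libraries, 1.16, 3.72 and 1.04 TPM in CMed libraries and 0.950, 2.27 and 3.30 TPM in MC libraries. LARS2, NARS2 and RARS2 averaged 5.97 to 10.2 TPM in CC and 8.35 to 11.5 TPM in MC, and HARS2 averaged 3.61 TPM in CC and 2.86 TPM in MC. VARS2 averaged 2.47 TPM in CC and 3.56 TPM in MC over 6 rows of its symbol, several of which repeat the same values, so its level is uncertain too.

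**Figure D4:**
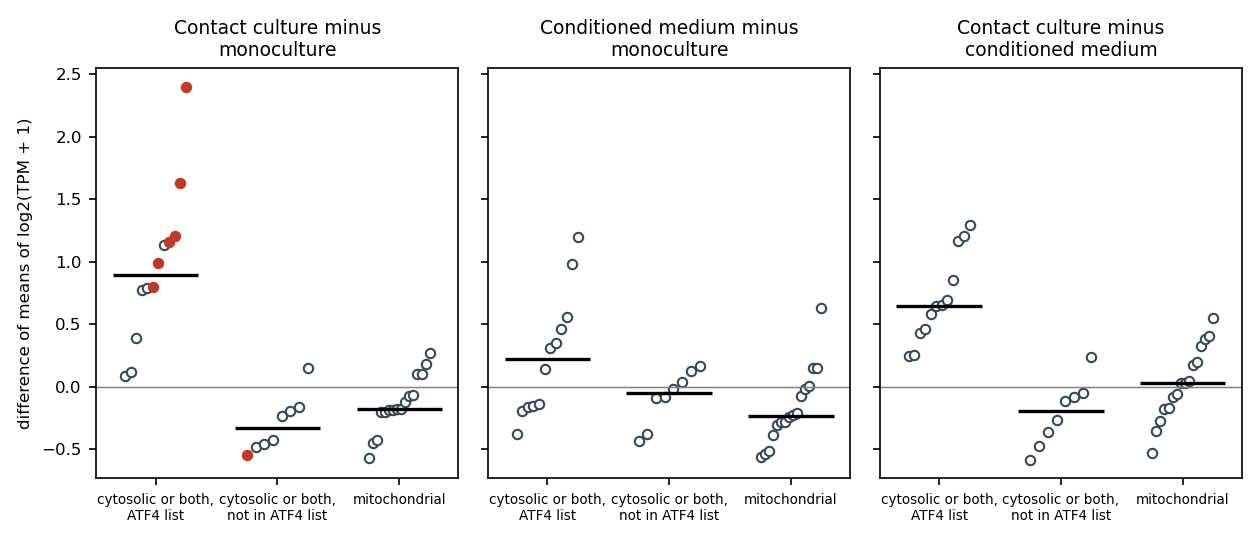
Differences of group means of log2(TPM + 1), 1 point per gene, for the 12 ATF4-list synthetases, the 8 other enzymes that work in the cytosol and the 16 mitochondrial synthetases, with CC minus MC, CMed minus MC and CC minus CMed from left to right. Bars are medians (0.89, −0.33 and −0.18 for CC minus MC), and red points have an adjusted p under 0.05 from limma, which occurs for CC minus MC only.

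The calls rested on few libraries. Leaving out 1 library at a time, the number of synthetases called between CC and MC was 2, 1 and 0 without CC replicates 1, 2 and 3, and 1, 10 and 1 without MC replicates 1, 2 and 3. Over all genes the number called ranged from 244 without CC replicate 3 to 1727 without MC replicate 2. Those ends were also the fits with the fewest and the most synthetases called. Between the ends the order differed, with 428 genes called without CC replicate 1 and 545 without CC replicate 2. MARS passed in 5 of these 6 fits, and without CC replicate 3 its log2 fold change was 2.29 (adjusted p = 0.0527 from limma). WARS passed without CC replicate 1 and without MC replicate 2, and had adjusted p of up to 0.102 in the other fits. TARS, YARS, CARS and GARS passed only without MC replicate 2, with adjusted p of 0.0507 to 0.120 in the other 5 fits, and KARS likewise (0.0827 to 0.163). Without MC replicate 2, AARS (log2 fold change 1.07, adjusted p = 0.00414), SARS (1.41, adjusted p = 0.0285) and IARS2 were called too. No direction of a called gene changed in any of these fits.

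Conditioned medium was compared with monoculture to show what soluble products of HS5 cells do without contact. In CMed libraries 0 of the 37 synthetases were called, against 1.38% of all genes tested by limma (0.707% higher and 0.677% lower). At an unadjusted p under 0.05 there were 7, against 15.7% of all genes, with MARS, WARS, CARS and EARS2 higher and KARS, FARSB and TARS2 lower. The log2 fold change of MARS was 1.19 (95% interval 0.33 to 2.06, adjusted p = 0.181) and that of WARS was 0.99 (0.27 to 1.70, adjusted p = 0.184), and in both genes every CMed library was above every MC library. Genes without overlap were MARS, WARS and EARS2, which were higher (3 of 37, against 6.67% of all genes), and KARS, FARSB, TARS2 and WARS2, which were lower (4 of 37, against 14.2%). The class medians were 0.23 for the 12 ATF4-list enzymes, −0.05 for the 8 other cytosolic enzymes and −0.23 for the mitochondrial enzymes, against −0.10 over all genes. Median-ratio scaling moved the median of all genes in this comparison by more than 0.1, to 0.01, and relative to that median the 3 classes then stood at 0.36, 0.08 and −0.11. The median of the 8 other cytosolic enzymes was above 0 with that scaling (0.09) and with upper quartile scaling (0.08). AARS passed the threshold without MC replicate 2 only (log2 fold change 0.61, adjusted p = 0.0459 from limma).

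Contact culture was compared with conditioned medium to set growth with HS5 cells beside their soluble products. The bead step is described for co-cultures only. The stromal marker VIM was at 6.28 to 11.7 TPM in CC and 0.343 to 0.914 TPM in CMed. Effects of contact, of the beads and of any stromal RNA cannot be told apart in this comparison. None of the 37 synthetases was called by limma (against 0.371% of all genes, 0.21% higher and 0.162% lower), although 7 had an unadjusted p under 0.05, against 12.2% of all genes. These 7 were all higher in CC and all on the ATF4 list, namely GARS, SARS, NARS, TARS, MARS, EPRS and YARS. Here too the list was not drawn up independently of these data. The log2 fold change was 0.65 for GARS (95% interval 0.31 to 1.00, adjusted p = 0.131), 1.29 for SARS (0.57 to 2.02, adjusted p = 0.150), 1.17 for NARS (0.45 to 1.88, adjusted p = 0.177) and 1.21 for MARS (0.34 to 2.07, adjusted p = 0.242). WARS differed by 0.64 (−0.07 to 1.36), and its CC and CMed libraries overlapped. The median was 0.65 for the 12 ATF4-list enzymes, with 12 of 12 above 0, −0.19 for the 8 others of the cytosol and 0.03 for the mitochondrial enzymes, against 0.00 over all genes. With upper quartile scaling the mitochondrial median was −0.01. No overlap was seen for 11 of 37 genes that were higher in CC (12.4% of all genes), 10 of them on the ATF4 list and the other PARS2, and for KARS and DARS, which were lower (9.93% of all genes). The calls against MC in contact culture are therefore not shown to exceed the changes in conditioned medium. CC and CMed were set against the same 3 MC libraries, so their changes are not independent of each other.

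Among partner genes of the synthetases, the 3 scaffolds of the multisynthetase complex were not called in CC against MC, with log2 fold changes of 0.07 for AIMP1, 0.82 for AIMP2 and −0.32 for EEF1E1. Of 14 genes of tRNA processing and export, 1 was called (2.84% of all genes were lower), RPP14, a subunit of ribonuclease P, which fell by 0.99 (adjusted p = 0.0131 from limma). Of 6 genes for editing and removal of wrong aminoacyl-tRNAs, 1 was also called, DTD2, a deacylase, which fell by 0.91 (adjusted p = 0.0207 from limma). The 4 genes of mitochondrial tRNA charging, the 6 of cytosolic elongation and the 9 mitochondrial translation factors had 0 calls each (4.99% of all genes were called). Their medians were 0.08, 0.37 and −0.09, and at an unadjusted p under 0.05 there were 1, 2 and 2, against 20.3% of all genes. None of these lists had a call in CMed against MC.

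Genes of the ATF4 pathway were called in contact culture too. Of 25 genes on its list, which holds no synthetase, 13 were higher and 1 lower in CC against MC (2.15% and 2.84% of all genes), with a median of 0.89. The list was drawn up with earlier results of these data known. Of the 13, INHBE reached 0.5 TPM in CC libraries only, and CHAC1 in CC libraries and CMed replicate 3 only. Both passed the filter through the group where they were high. ATF4 itself had 60.1, 50.2 and 52.8 TPM in CC libraries, 27.5, 31.6 and 28.1 TPM in CMed libraries and 13.1, 34.5 and 13.4 TPM in MC libraries (log2 fold change between CC and MC 1.52, adjusted p = 0.0300 from limma). Every CC library was above every other, and MC replicate 2 again lay above the other MC libraries. CEBPB, a partner of ATF4, rose by 2.40 (adjusted p = 0.00135) and SLC7A5, a transporter of large neutral amino acids, by 1.89 (adjusted p = 0.00217), while STC2, a secreted glycoprotein also known as a target, fell by 1.89 (adjusted p = 0.000196 from limma). In CMed against MC 1 of the 25 was higher, CEBPB (1.99, adjusted p = 0.00777 from limma, against 0.707% of all genes higher), and 1 lower, STC2. In CC against CMed, DDIT3 (1.14, adjusted p = 0.0492) and INHBE, an activin subunit (1.32, adjusted p = 0.0363 from limma), were higher (0.21% of all genes were). The call of INHBE is no separate evidence, since only CC libraries brought it past the filter. Of 6 genes of eIF2 kinases and phosphatase subunits, 2 were called (4.99% of all genes). PPP1R15A, the stress-induced phosphatase subunit, was higher in CC (1.37, adjusted p = 0.00882) and EIF2AK2, the kinase PKR, lower (−0.89, adjusted p = 0.0398 from limma).

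Beside WARS, 3 of 10 interferon gamma response genes tested were higher in CC than in MC (2.15% of all genes were), namely GBP2 (3.67), IRF1 (1.93) and PSMB9 (1.58). GBP2 and PSMB9 were also higher in CMed than in MC (2.75 and 2.15), where the log2 fold change of WARS was 0.99. IDO1, the enzyme that degrades tryptophan and is also induced by interferon gamma, was listed at 0 in every CC library, averaged 0.0523 TPM in CMed and was listed at 0 in every MC library.

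Some markers of the cell types differed between contact culture and monoculture. Of 30 stromal markers 13 passed the filter, and VIM, CAV1, FN1, PRRX1 and TWIST2 were higher in CC than in MC (2.15% of all genes were). CAV1, PRRX1 and TWIST2 reached 0.5 TPM in CC libraries only. They passed the filter only through the group where they were high, so their calls are no separate evidence. VIM was at 11.7, 6.28 and 9.20 TPM in CC libraries, 0.374, 0.343 and 0.914 TPM in CMed libraries and 1.25, 0.135 and 0.726 TPM in MC libraries. The 30 stromal markers together came to 62.3 to 81.1 TPM in CC, 35.1 to 42.3 TPM in CMed and 49.0 to 56.9 TPM in MC, and those listed at 0 numbered 4 to 9 in CC, 14 to 17 in CMed and 9 to 14 in MC. COL1A1 did not separate the groups, with 2.79 to 4.26 TPM in CC, 2.55 to 4.60 TPM in CMed and 2.73 to 6.29 TPM in MC. HS5 libraries were not analysed here, and what stromal RNA adds to the levels of the synthetases was not tested. EPCAM was at 137 to 160.4 TPM in CC, 127 to 145 TPM in CMed and 168 to 206 TPM in MC. Of 10 luminal markers 1, MUC1, was higher in CC than in MC (2.15% of all genes were). Another 2, PGR and GATA3, were lower (2.84% of all genes were). The median log2 fold change of the 10 was −0.41. Without overlap, 1 of them was higher and 4 were lower (9% and 15.3% of all genes).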

How the data were processed

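Total RNA was sequenced as paired ends of 100 bp. Per the labels, reads were trimmed with Trim Galore 0.5.0 and aligned with STAR 2.6.0. What quantified the genes, on which build and annotation, is not given in the sources used here. The deposited values were taken to be natural log values, ln(TPM + 1), since each library then sums to 884208 to 909618. The authors deposited no read counts, so limma was used in place of a test on counts. The 160 rows named by RNA families (0.0295% to 0.0770% of a library's TPM) were left out, and the TPM of repeated rows was added up for 481 symbols.

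TPM was recovered and put on the log2(TPM + 1) scale, which understates changes of low genes. The 16696 genes that reached 0.5 TPM in 3 or more of 9 libraries were fitted with limma 3.58.1 in R 4.3.3, with 1 coefficient per group, an intensity trend and robust empirical Bayes. Tests were 2-sided, with Benjamini-Hochberg adjustment over all genes and a threshold of 0.05. The fit was also run on simulated data with independent normal noise and known shifts. Those data meet the model by design, so the run checks the code and not the calls. Other steps used Python 3.11.15, numpy 2.4.6, pandas 2.3.3 and matplotlib 3.10.9. Gene coordinates are from GENCODE 29 by symbol, and promoters from RefSeq.

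The members and all gene lists, the list of known ATF4 targets included, were chosen with earlier results of these data known. Values in every library are given for members past the threshold, for the 3 most abundant members of each class and for partners of called members. SARS, AARS, NARS, EPRS and FARSB were added after their values were seen, because CC and MC did not overlap. From each other list, up to 4 called genes with the smallest adjusted p are named, and AIMP1, AIMP2, EEF1E1, ATF4, IDO1 and all called stromal markers were added. Alternatives were pseudocounts of 0.1 and 5, no filter, a filter at a TPM of 1, 3 other scalings, the largest row per symbol, a replicate block, fits of only the groups compared, no trend, a criterion on the fold change, and each library left out in turn.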

Additional observations from a re-analysis of the deposited data

How the results depend on the processing

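Of the 7 synthetases called between CC and MC, 5 to 7 were called under 10 of the 11 alternatives other than left-out libraries and the criterion on the fold change. With only the groups compared there were 2 (MARS and WARS), and with an absolute log2 fold change of at least 1 added there were 4. Leaving out 1 library gave 0 to 10 calls in that comparison, 0 to 1 between CMed and MC and 0 between CC and CMed. Over all genes, 833 were called between CC and MC, against 319 with only the groups compared, 509 with the replicate block and 520 with no filter. The split into 359 higher and 474 lower genes became 434 and 303 with median-ratio scaling, 407 and 340 with scaling to the upper quartile, and 413 and 328 when mitochondrial and ribosomal RNA was left out, and all 6 synthetases higher in CC were still called with each. Between CMed and MC the split of 118 and 113 became 144 and 54 with median-ratio scaling, 146 and 57 with scaling to the upper quartile, and 119 and 72 when mitochondrial and ribosomal RNA was left out. Libraries with the same replicate number showed little sign of a shared effect. They had correlations of deviations of −0.04 to 0.11 and matched their own number best in 2 of 18 checks. Such values cannot show that libraries of the same number were not paired. With the number as a block 6 synthetases were called between CC and MC, SARS among them (adjusted p = 0.0285 from limma) and WARS and KARS not (0.0578 and 0.0894). SARS changed direction between CMed and MC, at −0.15, without CMed replicate 3 (0.08) and without MC replicate 2 (0.12), in a range of −0.36 to 0.12 over the left-out libraries, and the cause was not tested. The difference of class medians lay between 0.33 and 0.52 for CC against MC, 0.12 and 0.38 for CMed against MC and 0.21 and 0.42 for CC against CMed. In the main fit it was 0.24 for CMed against MC, no larger than the SD of 0.25 between libraries of a group. For CC against CMed it was 0.31 (SD 0.20). TPM holds no depth, so the counting error of low members such as AARS2 and PARS2 is unknown.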
